A study of Mus musculus with 6 samples.

Results

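The Hox genes are homeobox transcription factors that record the position of a cell along the body axis. They were taken from the count table as the protein-coding genes whose name is Hox followed by a cluster letter from a to d and a number. This gave 40 rows under 39 names, of 22046 protein-coding genes and 54532 genes in all. The name Hoxd4 stands on 2 rows, ENSMUSG00000115956 and ENSMUSG00000101174. The rows are described by cluster and by paralog group, the number in the name that marks genes descended from one ancestral gene.

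In mammals the Hox genes lie in a few chromosomal clusters, HoxA to HoxD, and their order on the chromosome matches the order of their domains along the body. Low numbers belong to the hindbrain and neck, middle numbers to the trunk, and the highest numbers to the tail end, the distal limb and the genital tract. Cells keep much of this pattern in culture, with Polycomb complexes holding genes off and Trithorax complexes holding them on. In the gut, Hox genes are used both in the epithelium and in the mesenchyme around it, and the ParaHox genes Cdx1 and Cdx2 mark the intestinal epithelium.

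RNA was sequenced in 6 libraries of Glu-tag cells, a mouse line known as an enteroendocrine, proglucagon-producing line of the intestine and labelled as small intestine. There were 3 libraries titled sh-control with the genotype WT (shControl) and 3 titled sh-IRS2 with the genotype IRS2 Knockdown (shIRS2). The series text describes a stable knockdown, and no label says how many clones were used. The study asked what silencing Irs2, an adaptor of the insulin and IGF receptors, does to the transcriptome. Libraries held 14991019 to 19790073 counts, and 19943 to 20942 genes were detected in each.

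The labels were checked first. Irs2 stood at 31.6, 22.7 and 34.3 CPM (counts per 1000000 counts of the library) in the shControl libraries 1 to 3 and at 31.4, 28.6 and 38.7 CPM in the libraries labelled shIRS2. The ranges overlapped, and edgeR gave a log2 fold change of 0.17 with an SE of 0.16 (adjusted p = 1.00), the 95% interval being -0.20 to 0.54. The targeted transcript was thus not lower where the label says that it was knocked down, and groups are named by their label from here on. The tables' columns carry only the short names NC and S with a number, so which group and which library a column holds rests on those names. Of 22 enteroendocrine markers, 1 was expressed, Pax6, at a mean of 2.02 FPKM. Gcg, Pcsk1, Chga, Neurod1, Neurog3, Pyy, Sct, Gip and Scgn had 0 counts in all 6 libraries. Of 17 gut epithelium markers 2 were expressed, with Krt8 at 202 FPKM, while Epcam had 1 count. Of 20 fibroblast and mesenchyme markers 11 were expressed, led by Vim at 408 FPKM, Sparc at 86.9, Col3a1 at 74.6 and Twist1 at 44.8. Thy1 and Postn, of the same list, had 0 counts. Low members, chosen after their values were seen, included Col1a1 at 0.0311 FPKM, Dcn at 0.0433 and Acta2 at 0.0667, so the list was mixed. Markers of the labelled cell type, the proglucagon gene Gcg among them, were therefore not detected, and the Hox pattern is that of the cells as they were cultured. In bulk RNA, fewer cells expressing a gene and less RNA per cell cannot be told apart.

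Of the 40 Hox rows, 10 were expressed, 16 were detected at a lower level and 14 had no count in any library. A gene is called expressed where its level was at least 1 FPKM (counts per kilobase of gene length and per 1000000 of the library) in every library. The expressed rows included Hoxa5, Hoxa6, Hoxa7, Hoxa9, Hoxa10, Hoxc6, Hoxd8, Hoxd9 and Hoxd10. The 10 expressed rows held 18795 of 19395 Hox counts, or 96.9%. The share expressed was 25% of the Hox rows and 43.5% of all protein-coding genes, and the share with no count was 35% against 28.9%. The 16 low rows had 1 to 131 counts each over the 6 libraries and means of 0.00200 to 0.307 FPKM. No row had a mean between 0.307 and 1 FPKM. A total of 0 counts allows a level of up to 0.0295 CPM, taken as 3 counts over all 6 libraries, which is 0.00847 to 0.0287 FPKM for the 14 rows. This limit covers counting error only.

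**Figure D1:**
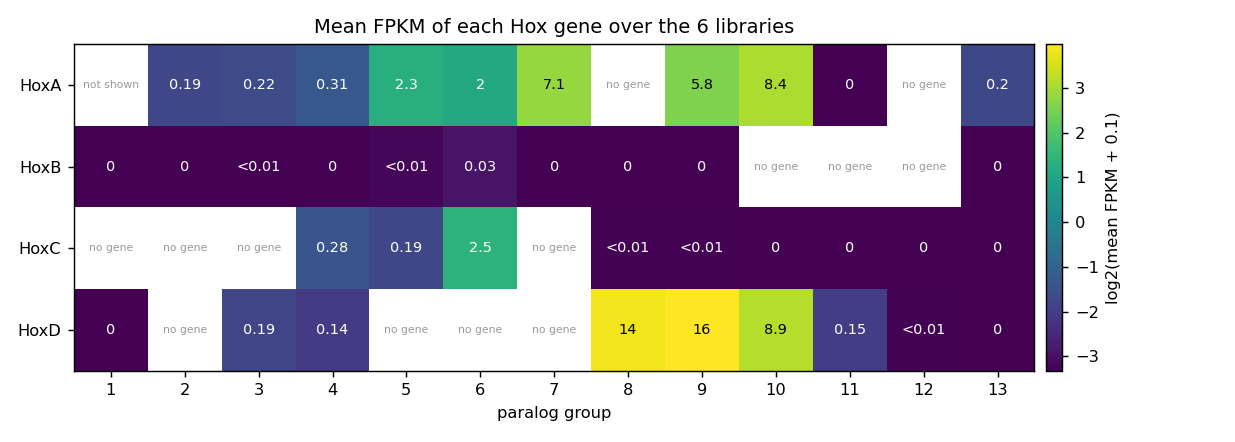
Mean FPKM over the 6 libraries for each Hox gene, with clusters as rows and paralog groups as columns, coloured on a log2(FPKM + 0.1) scale. The bright squares are Hoxd8, Hoxd9 and Hoxd10 and Hoxa7, Hoxa9 and Hoxa10, and the HoxB row is dark throughout. The square for Hoxd4 shows the row with more counts.

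The 4 clusters differed in how much of them was on. HoxA (chromosome 6, mm10) had 6 of 11 genes expressed and held 48.5% of the Hox counts. HoxD (chr2:74668310-74765142) had 3 of 10 rows expressed and held 47.5%. HoxC (chr15:102921103-103036852) had 1 of 9 expressed and held 3.91%. HoxB (chr11:96194316-96368256) had 0 of 10 expressed and held 9 counts in all, or 0.0464%. By paralog group, groups 8, 9 and 10 held 20.5%, 34.6% and 22.9% of the counts and group 7 held 10.7%. Groups 11, 12 and 13 held 65, 1 and 50 counts.

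In HoxD the 3 neighbouring genes Hoxd8, Hoxd9 and Hoxd10, which pattern the lower trunk and the developing limb, were on. Hoxd9 (ENSMUSG00000043342, chr2:74697727-74700208, plus strand) had the highest mean FPKM of all Hox genes, 15.7 ± 2.36 (SD, n = 6), above 84.5% of protein-coding genes. In mean CPM Hoxd8 was higher, at 39.1 against 33.8. Hoxd9 measured 15.3, 13.2 and 17.0 FPKM in the shControl libraries 1 to 3 and 15.4, 13.9 and 19.7 FPKM in the libraries labelled shIRS2. The groups overlapped, both libraries numbered 2 were the lowest of their group, and both numbered 3 were the highest.

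Hoxd8 (ENSMUSG00000027102, chr2:74704615-74707933) measured 11.1, 13.5 and 15.3 FPKM in shControl and 15.4, 14.0 and 16.0 in shIRS2. The groups overlapped, and shControl library 1 was the lowest. An annotated antisense transcript, Hoxd3os1, covers Hoxd8 on the other strand, and how the counting treated strand is not given in the sources used here. Hoxd3os1 itself was at 1.11, 1.75 and 1.15 FPKM in shControl and 1.89, 1.20 and 1.24 FPKM in shIRS2, well under Hoxd8 in every library. Hoxd10 (ENSMUSG00000050368, chr2:74691924-74695105), a gene of lumbar motor neurons and the hindlimb, measured 9.30, 9.28 and 7.55 FPKM in shControl and 9.37, 10.4 and 7.28 in shIRS2. Its order ran the other way from Hoxd9, with both libraries numbered 3 the lowest of their group.

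The neighbours on either side were nearly off. Hoxd11, next to Hoxd10, had 65 counts and a mean of 0.153 FPKM. Hoxd12 had 1 count, and Hoxd13, which shapes the digits, had 0. On the other side Hoxd3 had 81 counts (0.190 FPKM), the Hoxd4 rows had 37 and 4, and Hoxd1 had 0. Hoxd3 and both Hoxd4 rows overlap one another in the annotation, so the split of reads among them is uncertain. The step from Hoxd10 at 8.87 FPKM to Hoxd11 lay between adjacent genes of one cluster.

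HoxA had a broader stretch of expression. Hoxa10 (ENSMUSG00000000938, chr6:52231197-52240854, minus strand), known for lumbar vertebrae and the uterus, measured 8.18, 8.59 and 7.71 FPKM in shControl and 8.67, 8.71 and 8.57 in shIRS2. These 6 values lay close together, with a mean of 8.40 ± 0.392 FPKM (SD, n = 6). Hoxa9 (ENSMUSG00000038227, chr6:52223100-52231089), a gene of the trunk and of blood progenitors, measured 5.76, 5.35 and 5.85 FPKM in shControl and 6.74, 5.47 and 5.69 in shIRS2. Library 1 labelled shIRS2 stood above the rest, and the other values overlapped. Hoxa7 (ENSMUSG00000038236, chr6:52214491-52221854), a thoracic gene, measured 7.41, 7.50 and 5.18 FPKM in shControl and 7.59, 7.28 and 7.47 in shIRS2. Here shControl library 3 was low and the other 5 were nearly level.

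Hoxa5 and Hoxa6 were lower. Hoxa5 (ENSMUSG00000038253, chr6:52201754-52204587), needed for the lung and the neck-to-thorax vertebrae, measured 2.47, 2.20 and 2.33 FPKM in shControl and 2.15, 2.44 and 2.27 in shIRS2. Hoxa6 (ENSMUSG00000043219, chr6:52206288-52208722) measured 2.01, 2.10 and 1.41 FPKM in shControl and 2.01, 3.04 and 1.60 in shIRS2. The groups overlapped for both genes, and Hoxa6, with 180 counts in all, varied more than Hoxa5. Hoxa2, a gene of the second pharyngeal arch, was at 0.195 FPKM, Hoxa3 at 0.215 and Hoxa4 at 0.307. The annotated span of Hoxa3, introns included, runs across Hoxa4, Hoxa5 and Hoxa6, and Hoxa3 had 131 counts. Its annotated transcripts shared no exact stretch of 75 bases with those of the other 3 genes. How reads in the overlap were counted is not given in the sources used here.

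Beyond Hoxa10 the HoxA cluster was nearly off. Hoxa11, a gene of the forearm and lower leg and of the uterus, had 0 counts, although its start is only a few kilobases from that of Hoxa10. Hoxa13, a gene of the digits, the hindgut end and the genital tract, had 50 counts and 0.202 FPKM on average, with at least 1 count in all 6 libraries. It accounted for all counts of paralog group 13. Its values were 0.105, 0.103 and 0.249 FPKM in shControl and 0.0946, 0.225 and 0.437 in shIRS2, and the groups overlapped.

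HoxC had 1 expressed gene, Hoxc6 (ENSMUSG00000001661, chr15:102998257-103011881, plus strand), a gene of the thoracic region. It measured 2.79, 2.43 and 2.19 FPKM in shControl and 2.79, 2.31 and 2.72 in shIRS2, with overlapping groups. Hoxc4 had 74 counts (0.281 FPKM) and Hoxc5 had 62 (0.194 FPKM). The annotated span of Hoxc5, introns included, runs across Hoxc6, Hoxc8 and Hoxc9 and over part of Hoxc10. The annotated transcripts of Hoxc5 and Hoxc6 shared no exact stretch of 75 bases. How reads in the overlap of the spans were counted is not given in the sources used here. Hoxc8 and Hoxc9, the direct counterparts of the highly expressed Hoxd8 and Hoxd9, had 1 count each. Hoxc10, Hoxc11, Hoxc12 and Hoxc13 had 0.

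HoxB was off from end to end. Hoxb1, Hoxb2, Hoxb4, Hoxb7, Hoxb8, Hoxb9 and Hoxb13 had 0 counts in all 6 libraries. Hoxb3 had 1 count, Hoxb5 had 2 and Hoxb6 had 6. The 6 counts of Hoxb6 were 3 in shControl library 3 and 3 in shIRS2 library 3. The summed level of the cluster ran from 0 to 0.120 FPKM, against 36.0 to 43.4 FPKM for HoxD, 24.8 to 30.0 for HoxA and 2.84 to 3.35 for HoxC. The ranges of the 4 clusters did not touch. HoxD was higher than HoxA per length while HoxA held slightly more counts. In counts, HoxA exceeded HoxD in both libraries numbered 1 and both numbered 2, and HoxD exceeded HoxA in both numbered 3, at 50.6% against 45.5% in shControl and 49.7% against 46.4% in shIRS2.

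**Figure D2:**
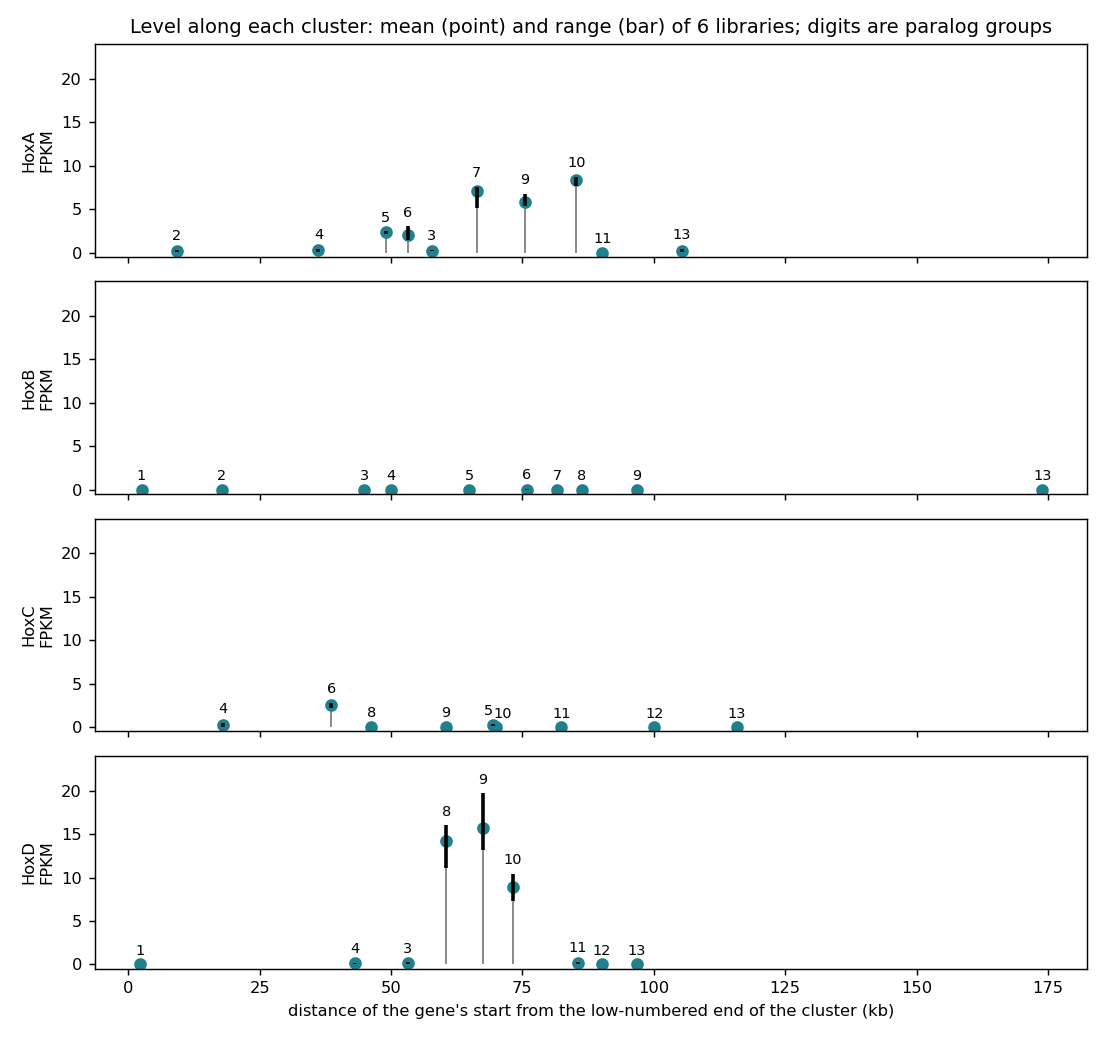
FPKM along each cluster, plotted by the distance of each gene's start from the end with the low numbers (kb), with the mean as a point and the range of 6 libraries as a bar. HoxD rises and falls over 3 adjacent genes, HoxA is on from group 5 to group 10, and HoxB lies at the baseline. Hoxa3 and Hoxc5 stand out of numerical order because their annotated models begin upstream of their neighbours.

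Ranked by mean FPKM the leading genes were, in order, Hoxd9, Hoxd8, Hoxd10, Hoxa10, Hoxa7, Hoxa9, Hoxc6, Hoxa5 and Hoxa6. Only 3 neighbouring steps in that order had ranges that did not touch, with the order kept in all 6 libraries. These were the steps from Hoxd8 (14.2 ± 1.81 FPKM, SD, n = 6) to Hoxd10 (8.87 ± 1.20), from Hoxa10 to Hoxa7 (7.07 ± 0.933) and from Hoxa9 (5.81 ± 0.493) to Hoxc6 (2.54 ± 0.264). The other neighbours could not be ordered beyond their spread. FPKM divides by the listed gene length, and CPM gave another order. Mean CPM ran from Hoxd8 (39.1) through Hoxd9 (33.8), Hoxa9 (32.5), Hoxa10 (27.6) and Hoxa7 (20.4) to Hoxd10 (16.1). The 3 steps above held in CPM, but Hoxa9 stood above Hoxa10, Hoxa7 and Hoxd10 in all 6 libraries. Between paralogs, Hoxd9 was 2.28 to 3.46 times Hoxa9 in FPKM and higher in all 6 libraries. This difference rests on the listed lengths, 2136 bases for Hoxd9 and 5580 for Hoxa9. In CPM the 2 genes were nearly level, with means of 33.8 and 32.5 and no constant order across libraries. Hoxd10 was 0.849 to 1.20 times Hoxa10 in FPKM and higher in 4 of 6, so the group 10 paralogs stood at similar FPKM. In CPM Hoxa10 was higher in all 6 libraries, with means of 27.6 against 16.1.

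**Figure D3:**
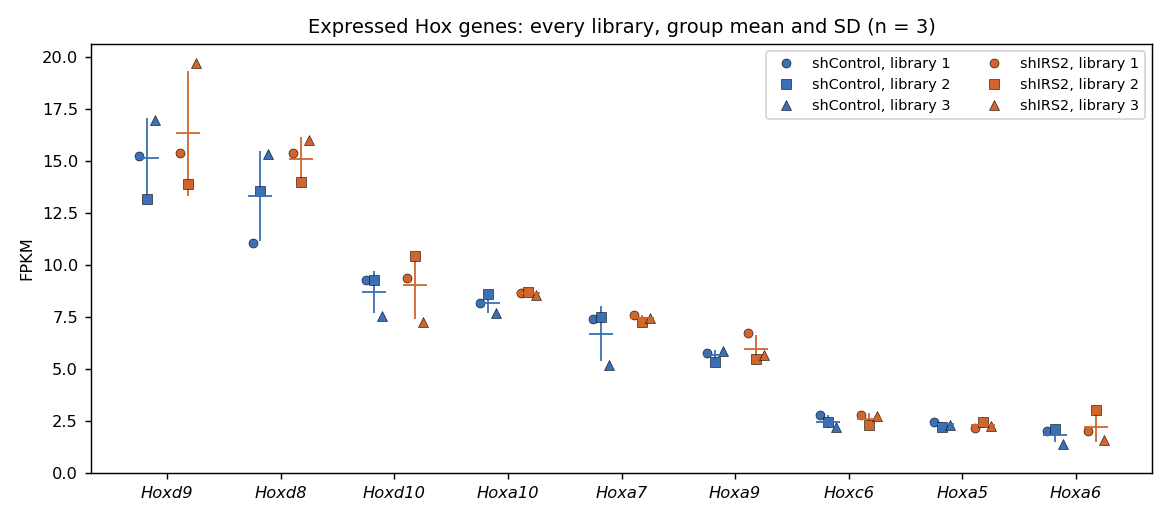
FPKM of 9 expressed Hox genes in every library, with marker shape for the library number, colour for the group, a horizontal dash for the group mean and a bar for the SD (n = 3). The groups overlap for every gene on this scale, and Hoxd9, Hoxd8 and Hoxd10 have the largest SDs over the 6 libraries.

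Paralogs share the homeobox, the stretch of coding sequence for the DNA-binding homeodomain, so their reads could in principle be confused. The homeoboxes of Hoxa10 and Hoxd10 are printed here because these paralogs stood at similar FPKM above. They were read from GENCODE M21 transcripts on GRCm38, 5′ to 3′ on the coding strand, each 180 bases within coding exons, and capitals mark bases that differ from the partner. Hoxa10 lies at chr6:52232554-52232733 (minus strand) and Hoxd10 at chr2:74694141-74694320 (plus strand).
Hoxa10: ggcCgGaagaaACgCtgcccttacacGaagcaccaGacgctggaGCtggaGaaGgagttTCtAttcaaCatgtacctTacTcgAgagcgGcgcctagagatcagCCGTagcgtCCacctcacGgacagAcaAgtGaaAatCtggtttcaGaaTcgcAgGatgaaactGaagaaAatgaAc
Hoxd10: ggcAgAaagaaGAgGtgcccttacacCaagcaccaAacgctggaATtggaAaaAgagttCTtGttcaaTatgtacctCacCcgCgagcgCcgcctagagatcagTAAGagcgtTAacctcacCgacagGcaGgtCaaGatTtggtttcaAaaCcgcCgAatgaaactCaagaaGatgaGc

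The pair differed at 38 bases (78.9% identity), which change 3 residues. Most differing bases leave the residue the same, yet capitals stand along the whole length, so a read of 150 bases within the homeobox crosses several of them. A homeobox was found for each of the 39 Hox names. Pairs of the same paralog group had a median identity of 80.6% (42 pairs, 67.2% to 93.9%), and pairs of different groups 60.6% (699 pairs). Over whole transcripts, which the annotation held for 39 of the 40 rows, no stretch of 75 bases was shared exactly by Hox genes of different clusters. Within clusters 2 pairs shared such stretches, Hoxc10 with Hoxc5 and Hoxd3 with Hoxd4, all of them low or at 0.

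Promoter sequence was set beside expression. RefSeq windows on GRCm38.p6 were found for 22 of 39 Hox names, each 300 bases long from upstream of the annotated start to just inside it. The Hox windows held a median of 13.5 CpG, against 7 over all 32851 windows. By level, the median was 16 for 8 windows of expressed genes (4 to 29), 11 for 8 windows of low genes (4 to 45) and 14.5 for 6 windows of genes with no count (10 to 37). Those ranges overlap almost entirely, so CpG number in this window did not separate genes that were on from genes that were off. The 250 bases before the start are printed for Hoxa10 and Hoxd10, which had similar FPKM, and for Hoxd12, which was nearly off in the same cluster as Hoxd10. Capitals mark CpG. The windows are chr6:52240855-52241104 (minus strand), chr2:74691641-74691890 (plus strand) and chr2:74674763-74675012 (plus strand).
Hoxa10: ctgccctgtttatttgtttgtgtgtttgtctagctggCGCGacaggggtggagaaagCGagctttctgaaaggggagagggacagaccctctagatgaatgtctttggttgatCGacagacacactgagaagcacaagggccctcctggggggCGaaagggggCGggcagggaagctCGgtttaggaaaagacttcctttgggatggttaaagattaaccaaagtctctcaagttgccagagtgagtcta
Hoxd10: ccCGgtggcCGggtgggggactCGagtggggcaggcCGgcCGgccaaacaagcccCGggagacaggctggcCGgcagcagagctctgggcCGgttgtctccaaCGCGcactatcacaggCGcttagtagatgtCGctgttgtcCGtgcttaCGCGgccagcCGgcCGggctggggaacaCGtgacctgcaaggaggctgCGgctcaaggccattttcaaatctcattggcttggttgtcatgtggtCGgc
Hoxd12: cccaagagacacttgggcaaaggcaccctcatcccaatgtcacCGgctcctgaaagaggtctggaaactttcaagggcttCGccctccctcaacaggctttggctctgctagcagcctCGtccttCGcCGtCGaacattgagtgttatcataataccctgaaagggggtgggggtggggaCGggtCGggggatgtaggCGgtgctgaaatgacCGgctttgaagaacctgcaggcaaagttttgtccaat

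These held 7, 20 and 10 CpG. The expressed paralogs thus differed more from each other in CpG than Hoxa10 did from Hoxd12. Among motifs searched on both strands of the 300-base windows, TATAAA was in 3 of 22 Hox windows (Hoxb8, Hoxd13 and Hoxd4) and in 13.6% of all windows. CCAAT was in 14 of 22, and in 4 of the 8 windows of expressed genes, against 37.4% of all. The HOX-PBX motif TGATTNAT was in 1 of 22, Hoxa2, against 3.22% of all. These are matches of letters only.

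The group comparison asks whether the Hox genes differed between the libraries labelled shIRS2 and shControl. None passed the test. Of the 40 rows 15 had enough counts to be tested, the 10 expressed genes and Hoxa3, Hoxa4, Hoxc4, Hoxd3 and Hoxd11, and 0 of them were called at an edgeR adjusted p under 0.05. The background was 0% of the 13472 genes tested. At an unadjusted p under 0.05 the counts were 0 of the 15 Hox genes and 262 of all genes, and DESeq2 and limma called 0 Hox genes as well. The log2 fold changes of the expressed genes ran from -0.03 (Hoxa5) to 0.27 (Hoxa6), all with edgeR adjusted p = 1.00. Those of the 5 low genes ran from 0.28 (Hoxd3) to 0.87 (Hoxd11, SE 0.51, 95% interval -0.27 to 2.00).

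Of the 15 estimates 14 were above 0, with a median of 0.18. The median of the 10 expressed genes was 0.10, and 3 of them were higher in shIRS2 in CPM within every library number. The genes share the same 6 libraries and many are neighbours in a cluster, so their signs are not independent. Over all genes tested 49.9% were above 0 and the median was -0.00. Hoxa5 was the one below 0. The fibroblast and mesenchyme markers were set beside this. Of 14 tested 11 were above 0 with a median of 0.10, and 0 were called by edgeR. The summed level of all 20 was 646 to 752 FPKM in shControl and 760 to 781 FPKM in shIRS2, without overlap. Vim, at a mean of 408 FPKM, made up most of that sum, and Thy1 and Postn were at 0. Among single genes tested, 6.52% had groups that did not overlap in CPM. The part of these markers in the Hox estimates was not tested. The estimates of expressed genes were bounded fairly closely: the 95% interval excluded a change of 2-fold in either direction for all 10 of them. For Hoxd9 it ran from -0.23 to 0.45, for Hoxd8 from -0.11 to 0.48 and for Hoxa10 from -0.15 to 0.32 on the log2 scale.

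Hoxa10 was the only Hox gene whose groups did not overlap in CPM, at 27.3, 27.9 and 25.4 CPM in shControl and 28.6, 28.1 and 28.2 CPM in shIRS2. Such a split was seen in 6.52% of all genes tested, and on the FPKM scale the groups of Hoxa10 overlapped. With the library number added as a replicate block, 0 Hox genes were called by edgeR, with adjusted p from 0.549 (Hoxd11) to 0.978 (Hoxa5), against a background of 0.00742%. Hoxd8 then had a log2 fold change of 0.19 (95% interval -0.01 to 0.39, edgeR adjusted p = 0.558).

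**Figure D4:**
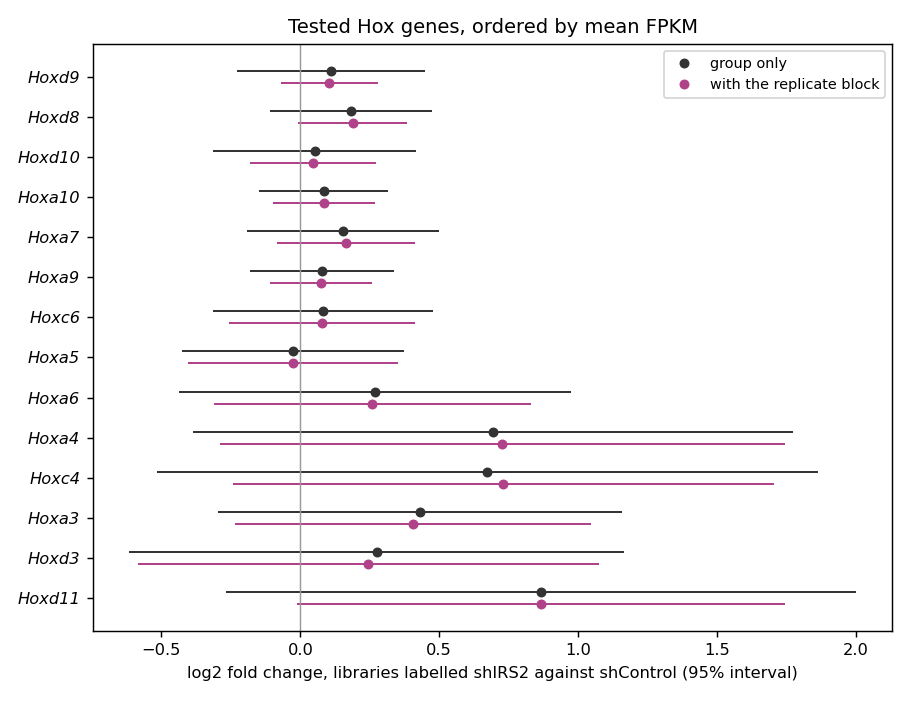
Log2 fold change of the tested Hox genes, libraries labelled shIRS2 against shControl, with 95% intervals, for the group alone and with the replicate block. Of the 15 genes 14 are drawn. All intervals drawn include 0, 13 of 14 points lie above it, and the 5 low genes at the bottom have the widest bars.

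The Hox genes were also compared between library numbers, where Hoxd9 differed. Tested by edgeR across the numbers 1, 2 and 3 with the group in the model, 1 of the 15 Hox genes was called, or 6.67%, below the background of 19.6% of all genes tested. The called gene was Hoxd9 (edgeR adjusted p = 0.0184), with means of 33.2, 28.6 and 39.5 CPM over the pairs numbered 1, 2 and 3. Hoxd10 had means of 17.2, 17.7 and 13.6 CPM (edgeR adjusted p = 0.0753), so its low pair was the high pair of Hoxd9. Hoxa10 and Hoxa5 were nearly level across the numbers, with edgeR adjusted p of 0.794 and 0.999. The call for Hoxd9 was lost without either library numbered 2, without shIRS2 library 3 and in a DESeq2 likelihood ratio test.

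Genes that act with or on the Hox genes were set beside them. The TALE-class cofactors, which bind DNA together with Hox proteins, were on: 6 of 9 were expressed, led by Pbx2 at 10.5 FPKM, Meis3 at 5.22, Pknox1 at 4.68 and Pbx3 at 3.62. Of the 9 tested 5 were above 0 between the groups (median 0.01) and 0 were called. The ParaHox and Hox-linked homeobox genes were off, with 0 of 9 expressed. Gsx1, Gsx2, Cdx2 and Evx1 had 0 counts, Pdx1, of pancreas and duodenum, had 4 and Cdx1 had 1. Evx2, which borders HoxD, had 3.

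The chromatin regulators of the clusters were all present. All 28 Polycomb genes were expressed, led by Rbbp7 at 142 FPKM, Suz12 at 45.2, Bmi1 at 39.5 and Rbbp4 at 38.7. All 17 Trithorax and Hox activator genes were expressed, led by the cohesin subunit Rad21 at 96.2 FPKM, with Dpy30 at 52.3, Psip1 at 37.2 and Wdr5 at 31.0. Between the groups 15 of 28 Polycomb genes were above 0 (median 0.01) and 6 of 17 Trithorax genes (median -0.07), with 0 called in either. Across library numbers 7 of 28 and 6 of 17 were called, against the same 19.6% of all genes.

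Genes of the signalling pathways that set Hox domains in the embryo were expressed in part. Of 17 retinoic acid genes 6 were expressed, among them the receptors Rxrb (15.8 FPKM), Rarg (14.7) and Rxra (11.6) and the binding protein Crabp1 (14.6). The synthetic enzyme Aldh1a2 and the receptor Rxrg had 0 counts, and the synthetic enzymes Aldh1a1 and Aldh1a3 had 1 and 12. Of 13 posterior signal genes 4 were expressed, Zic2 (8.51 FPKM), the ligands Gdf11 (6.92) and Wnt5a (2.57) and the nuclear receptor Nr6a1 (1.33). Fgf4, T, Wnt3a, Lin28a, Sall4 and Zic1 had 0 counts. Between the groups 4 of 11 tested retinoic acid genes and 2 of 5 tested posterior signal genes were above 0, and 0 were called.

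**Figure D5:**
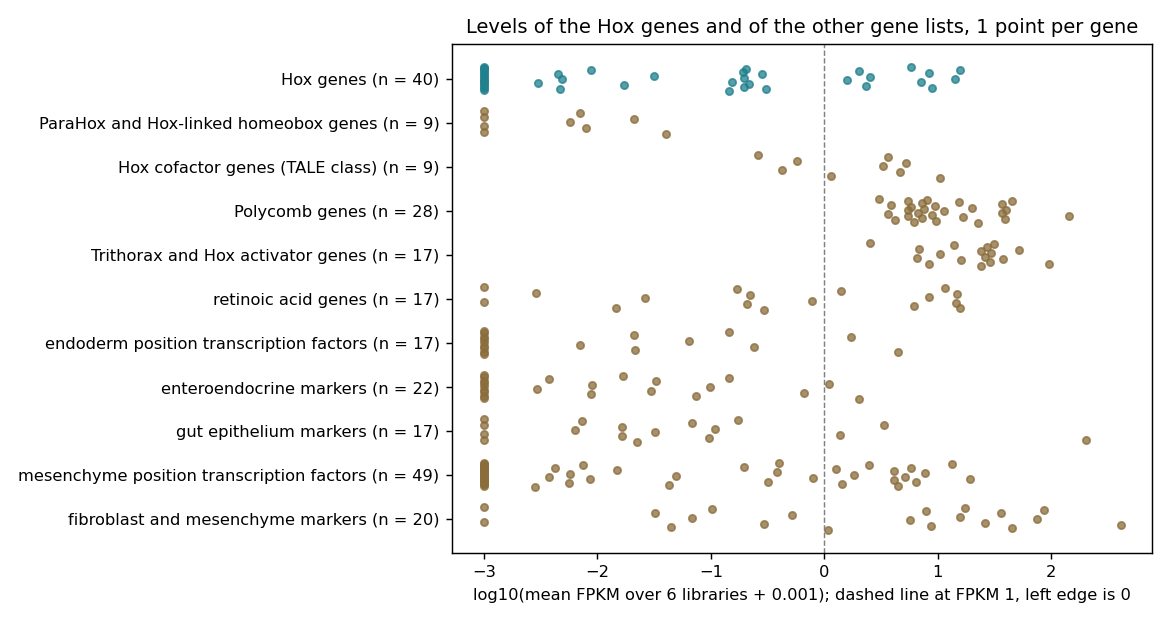
Mean FPKM over 6 libraries on a log10(FPKM + 0.001) axis, 1 point per gene, for the Hox genes and 10 other lists, with a dashed line at 1 FPKM. The Hox genes form a group above the line and a group well below it, while all Polycomb and Trithorax genes lie above it and all ParaHox genes below it.

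Other transcripts inside the clusters were mostly low. Apart from the Hox rows, 2 genes reached a mean of 1 CPM, both in HoxD: the antisense Hoxd3os1 at 4.01 CPM and Gm28230, which overlaps Hoxd3 and Hoxd4, at 1.38 CPM. The next transcripts were chosen after their values were seen. Hotairm1, an antisense transcript of the HoxA cluster, had 87 counts and 0.868 CPM. Hotair, from the HoxC cluster, had 1 count. The miRNA genes Mir10a, Mir10b, Mir196a-1, Mir196a-2, Mir196b and Mir615 had 0 counts, in libraries selected for poly(A), which do not capture mature miRNAs.

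The flanks of the clusters were compared as well. The near absence of HoxB extended to 3 of its 4 nearest protein-coding neighbours: Ttll6 at 0.0365 FPKM, Calcoco2 at 0.0314 and Skap1 at 0.0224, while Snx11 was at 4.07. Around HoxD, Lnpk was at 5.59 FPKM and Mtx2 at 18.6 although Evx2 between Lnpk and the cluster was nearly off. Around HoxA, Skap2 was at 5.00 FPKM and Hibadh at 6.51, with Evx1 at 0. Around the mostly silent HoxC, Calcoco1 was at 4.07 FPKM, Smug1 at 2.40 and Cbx5 at 48.4. Low flanks were thus seen on both sides of HoxB but not of HoxC.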

How the data were processed

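For the 6 libraries the authors deposited unnormalized read counts per gene and, separately, FPKM, on mm10 per the submitters' processing notes. Each FPKM equals the deposited count over the gene's listed length and over 1 total per library, which was 0.985 to 1.02 times the sum of its counts. Per the labels' protocols, libraries were poly(A) selected, strand-specific and read as paired ends of 150 bases. Aligner, counting tool and strand setting: not given in the sources used here. The columns are named NC1 to NC3 and S1 to S3. NC was read as sh-control, S as the remaining group, sh-IRS2, and the digit as the number ending each title. No label spells out NC or S, and every sample description says rep1, so group and number rest on this reading, and Irs2, not lower in S, gives it no check.

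Counts were tested in R 4.3.3 with edgeR 4.0.16 (filterByExpr, which kept 13472 genes with 99.9% of counts; TMM; quasi-likelihood test with robust dispersions; Benjamini-Hochberg over all genes tested; two-sided). Scripts were tested on simulated data. DESeq2 1.42.0, limma 3.58.1, other filters and leaving out libraries were the alternatives. The Hox rows and the 15 other gene lists were chosen with earlier results of these data known. By the rule for named genes, Hox genes with at least 1 FPKM in every library are named with all values, and in other lists up to 4 genes highest in mean FPKM and those at 0. Counts cover all genes, and some results are not reported here.

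Libraries are described as biological triplicates in the series text. No label says what a library number marks, and the p-values reflect only how far these samples spread, which may be technical in part. Deviations from group means correlated at 0.167, 0.576 and 0.260 for the numbers 1, 2 and 3. Libraries 1 and 3 of different groups also correlated, at 0.199 and 0.189, both above the value for number 1. Number 1 thus gave no sign of pairing. The main test was run without the replicate block, and the block was an alternative. No library repeated another.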

Additional observations from a re-analysis of the deposited data

How the results depend on the processing

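The count of 10 expressed Hox genes was the same at a minimum of 0.5 FPKM, by mean FPKM, by CPM, by TPM and without any 1 library, and was 8 at a minimum of 2 FPKM, where Hoxa6 was among those lost. The count of Hox genes called between the groups was 0 under every alternative run, including the replicate block in edgeR and in DESeq2. Across library numbers the count of 1 became 0 in the DESeq2 likelihood ratio test and ran from 0 to 2 when 1 library was left out: 0 without shControl library 2 or shIRS2 library 2, and 2 (Hoxd8 and Hoxd9) without shIRS2 library 1. Without shIRS2 library 3 the 1 called gene was Hoxa7 in place of Hoxd9. The cause was not tested.

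Of 150 log2 fold changes of the expressed genes under alternatives, 140 kept their sign and side of the threshold and 10 changed sign, with a smallest adjusted p of 0.558 by any tool. Leaving out 1 library gave ranges of -0.0448 to 0.21 for Hoxd9, -0.0632 to 0.18 for Hoxd10, -0.0068 to 0.24 for Hoxa7, -0.0223 to 0.14 for Hoxa9, -0.0027 to 0.17 for Hoxc6, -0.075 to 0.0124 for Hoxa5 and -0.0252 to 0.45 for Hoxa6. Hoxd10 was at -0.0126 without both libraries numbered 2. With 3 libraries a group, the 95% intervals of Hoxa3, Hoxa4, Hoxc4, Hoxd3 and Hoxd11, with 50 to 131 counts each, were wide. They include a rise of 2-fold but not a fall of 2-fold, so a rise of that size was not excluded.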

Other observations

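Transcription factors that mark position in mesenchyme were read as a further record of place. Of 49 such genes 12 were expressed, 21 had 0 counts and 16 lay between. The highest were Nkx2-5, known from the heart, at 19.2 FPKM, Tbx15 at 13.3, Pax9, of the pharyngeal pouches and the face, at 7.72, and Shox2, of the limb and the palate, at 6.43. Among those at 0 were Hand1, Hand2, Alx1, Foxd1, Nkx2-3, Barx1, Tcf21 and Wt1. Of 17 tested between the groups 6 were above 0 (median -0.04) and 0 were called by edgeR. Of 17 endoderm position transcription factors 2 were expressed, among them Foxa2 at 1.71 FPKM, and 9 had 0 counts, among them Gata5, Gata6, Hnf4a, Hnf4g, Sox17, Sox2, Nkx2-1 and Cdx2. Of the markers of other sources, 1 of 8 endothelial genes was expressed (Eng, 31.2 FPKM), 2 of 8 immune genes (Lyz2, 1.79, and Cd68, 1.74), 1 of 12 neural and glial genes (Tubb3, 2.11) and 1 of 8 kidney and genital tract genes (Osr1, 5.56).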
